A study of Mus musculus with 5 samples.

Results

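The genes described here are mouse genes named Zfp and a number, with or without a final letter, that were expressed in pluripotent cells. They were chosen by symbol and level: of 353 such rows in a table of 23951 genes, leaving out Zfp42, 218 averaged 2 FPKM or more (fragments per kilobase of transcript, scaled to the mapped fragments of a library) over 5 libraries. The mean of the 5 values was used for the choice, so their overall level is a description and supports nothing. Zfp933 (mean 2.03 FPKM) lay just inside that limit and Zfp964 (1.99 FPKM) just outside.

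RNA was sequenced in epiblast stem cells derived from embryonic stem cells (EpiSCs), which stand for the primed state of pluripotency, and in E14 mouse embryonic stem cells (ESCs), which stand for the naive state. The 5 groups held 1 library each: untreated EpiSCs, EpiSCs given bone morphogenetic protein 4 (BMP-4) at 10 ng/ml for 1.5 h, EpiSCs given the same dose for 24 h, ESCs in basal medium with leukaemia inhibitory factor (LIF) and BMP-4 at 10 ng/ml, and ESCs with LIF and serum. The EpiSCs grew in N2B27 with FGF2 and Activin A on dishes coated with serum, and the ESCs on gelatin. The source of all 5 samples is given as E14, a single line. With 1 library a group no difference was tested, and no p-value is given.

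Zfp is the mouse prefix for zinc finger protein. Most such proteins carry arrays of C2H2 fingers, small folds held by a zinc ion that read DNA, and the arrays let each protein recognise its own sequence. Many also carry a KRAB domain, which recruits the scaffold Trim28 and through it the histone methyltransferase Setdb1, HP1 proteins and deacetylases, and so silences transposons and protects imprints in early embryonic cells. KRAB zinc finger genes arose by repeated local duplication and often lie in clusters, while a few genes with the prefix encode RNA-binding or other finger types.

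The labels of the cell states were checked against markers. Of 3 markers of both states, Nanog and Sox2 met the switch rule given below, lower in EpiSCs, and Pou5f1 did not. Nanog stood at 64.7, 64.8 and 81.4 FPKM in untreated, 1.5 h and 24 h EpiSCs. In ESCs with BMP-4 and with serum it stood at 201 and 178 FPKM. Sox2 stood at 77.2, 90.25 and 55.5 FPKM in the EpiSC libraries and at 243 and 189 FPKM in the ESC libraries. Pou5f1 stood at 1264, 1242 and 1208 FPKM in EpiSCs and at 1625 and 1677 FPKM in ESCs. The 6 naive markers summed to between 3.66 and 4.30 FPKM in the EpiSC libraries and to 1528 and 1759 FPKM in the ESC libraries, and the 6 primed markers to between 462 and 722 FPKM in the EpiSC libraries and to 64.6 and 64.5 FPKM in ESCs with BMP-4 and with serum. By the switch rule 5 of the 6 primed markers were higher in EpiSCs, and Otx2 was not called. Otx2 stood at 30.1, 28.4 and 8.21 FPKM in untreated, 1.5 h and 24 h EpiSCs. In ESCs with BMP-4 and with serum Otx2 stood at 5.83 and 2.99 FPKM. Lefty1 stood at 69.9, 35.7 and 8.42 FPKM in the EpiSC libraries, while Fgf8 stood at 61.2, 61.4 and 82.0 FPKM. The 6 fibroblast markers summed to at most 5.89 FPKM in any library, with Dcn listed at 0 in all. Thy1 made up most of each fibroblast sum, at 4.68, 3.30 and 2.72 FPKM in untreated, 1.5 h and 24 h EpiSCs. It stood at 4.33 and 2.56 FPKM in ESCs with BMP-4 and with serum. The 5 endoderm markers summed to 20.3, 12.2 and 6.96 FPKM in untreated, 1.5 h and 24 h EpiSCs. In ESCs with BMP-4 and with serum they summed to 0.72 and 0.415 FPKM. Foxa2 stood at 13.2, 4.06 and 1.86 FPKM in untreated, 1.5 h and 24 h EpiSCs. In ESCs with BMP-4 and with serum Foxa2 stood at 0 and 0.0583 FPKM. Sox17 stood at 3.63, 3.72 and 1.87 FPKM in the EpiSC libraries and at 0 and 0.0705 FPKM in the ESC libraries. Gata4 and Gata6 were each above 1 FPKM in every EpiSC library, and Afp was at or near 0 in all libraries. The 4 neural markers summed to between 17.3 and 25.3 FPKM in EpiSCs. In ESCs with BMP-4 and with serum they summed to 45.2 and 77.5 FPKM. Tubb3 made up most of each neural sum, at between 16.7 and 24.8 FPKM in EpiSCs. It stood at 35.3 and 71.9 FPKM in ESCs with BMP-4 and with serum. The other 3 neural markers, Neurod1, Pax6 and Sox1, were each below 1 FPKM in every EpiSC library. In each ESC library 1 of the 4 was below 1 FPKM. Whether cells of these other types, if present, had a part in the values below was not tested. FPKM values do not state depth. From the steps in low values, 1 read in untreated EpiSCs, EpiSCs at 1.5 h, ESCs with BMP-4 and ESCs with serum was worth 1.37, 1.22, 1.51 and 1.57 times that in the 24 h library, which was thus the deepest.

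Most of the Zfp genes were expressed at low levels. Of the 218 genes, 98 had a mean between 2 and 5 FPKM, 60 between 5 and 10, 34 between 10 and 20, 21 between 20 and 50, and 5 above 50. Their median over the libraries was 5.95 FPKM, against 13.4 FPKM for all 9763 genes averaging 2 FPKM or more. The highest were Zfp207, which encodes a protein of spindle assembly (mean 136 FPKM), and Zfp57, a guardian of imprints (101 FPKM). Zfp330 (85.1 FPKM), the RNA-binding protein gene Zfp106 (70.4 FPKM) and Zfp706, a gene required for exit from the naive state (56.9 FPKM), followed. Low levels go with wide deposited intervals, and in untreated EpiSCs the upper bound typically lay 81.5% above the value (median over these genes). None of the 218 was listed at 0 in any library.

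The first question was which of these genes switch with cell state. A gene was called switched when each of the 3 EpiSC libraries lay at least 2-fold from each of the 2 ESC libraries in the same direction, measured as log2(FPKM + 1), where the added 1 shrinks differences of weakly expressed genes. Zfp281 was left out of this call because its status was FAIL in both ESC libraries and in the 24 h library, which left 217 genes. Of these, 24 switched: 10 were higher in EpiSCs (4.61%, against 6.99% of all genes averaging 2 FPKM or more) and 14 were lower (6.45%, against 6.2% of all genes). In such bulk samples fewer cells that express a gene and less of its RNA per cell cannot be told apart. The share of Zfp genes that were lower in EpiSCs was thus close to that of all genes, and the share that were higher was below it. A further 168 of the 217 Zfp genes (77.4%) stayed within 2-fold across all 5 libraries, against 71.5% of all genes. All genes were not matched to the Zfp genes for level (median 13.4 FPKM, against 5.95 FPKM for the Zfp genes). The added 1 shrinks differences more at low levels, and whether level had a part in these shares was not tested. A switched gene can reach the mean through 1 state: 5 of the 14 lower genes averaged under 2 FPKM in EpiSCs and 5 of the 10 higher genes averaged under 2 FPKM in ESCs.

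**Figure D1:**
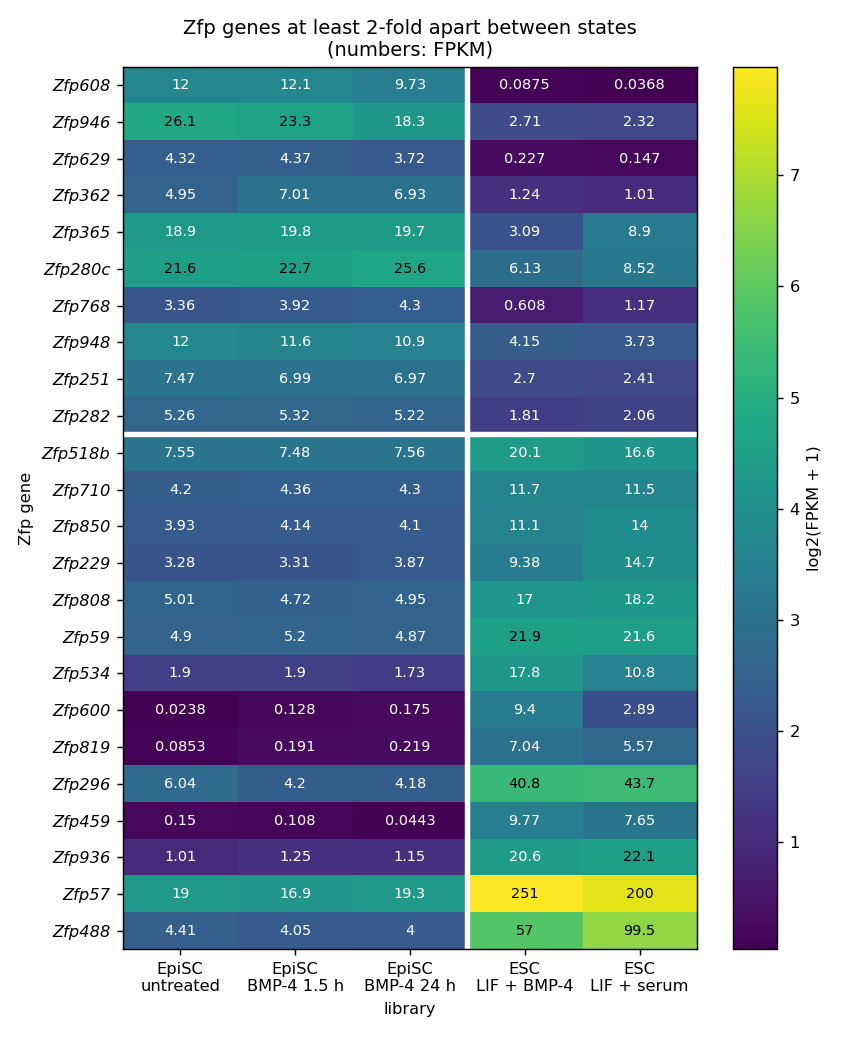
FPKM of the 24 switched Zfp genes (rows, ordered by their median EpiSC minus ESC difference) in the 5 libraries (columns), with colour for log2(FPKM + 1). Within each row the 3 EpiSC values lie close together and apart from both ESC values, from Zfp608 at the top (highest in EpiSCs against ESCs) to Zfp488 at the bottom.

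Among the genes that were lower in EpiSCs, 5 had intervals apart in all 6 pairs of libraries. Zfp488, known as a partner of Olig2 in oligodendrocyte development (mm9 chromosome 14, 34780256 to 34791950), stood at 4.41, 4.05 and 4.0 FPKM in EpiSCs that were untreated and treated for 1.5 h and 24 h, against 57.0 FPKM in ESCs with BMP-4 and 99.5 FPKM in ESCs with serum. The lowest ESC value was thus far above every EpiSC value, and the median of the 6 log2 differences was -3.88. Of its 31-base words 18.2% occur in other genes. Zfp57, a KRAB zinc finger gene that keeps DNA methylation at imprinted loci (chromosome 17, 37138108 to 37147674), stood at 19.0, 16.9 and 19.3 FPKM in the EpiSC libraries, against 251 FPKM (140 to 362) in ESCs with BMP-4 and 200 FPKM (110 to 289) in ESCs with serum. Zfp57 kept a clear level in EpiSCs, above the median of the Zfp genes there (5.17 FPKM in untreated cells), and its median log2 difference was -3.56.

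Zfp296, which encodes a pluripotency-associated protein used as an aid in reprogramming (chromosome 7, 20162636 to 20166005), stood at 6.04, 4.20 and 4.18 FPKM in untreated, 1.5 h and 24 h EpiSCs, against 40.8 FPKM in ESCs with BMP-4 and 43.7 FPKM in ESCs with serum. The groups did not overlap, and its median log2 difference was -3.01. Zfp936 stood at 1.01, 1.25 and 1.15 FPKM in the EpiSC libraries, against 20.6 and 22.1 FPKM in ESCs with BMP-4 and with serum. Zfp459 was near 0 in EpiSCs (0.150, 0.108 and 0.0443 FPKM) and stood at 9.77 and 7.65 FPKM in ESCs with BMP-4 and with serum. Both of these genes share sequence with other genes, 31.4% of the 31-base words of the Zfp936 transcripts and 11.2% of those of Zfp459, and no source used here says how shared reads were counted.

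Of the genes listed for repression of transposons, Zfp819 and Zfp600 were among the lower ones. Zfp819, which encodes a KRAB protein that represses retrotransposons in ESCs (chromosome 7, 50862539 to 50873649), stood at 0.0853, 0.191 and 0.219 FPKM in the EpiSC libraries, against 7.04 FPKM (0.673 to 13.4) in ESCs with BMP-4 and 5.57 FPKM (0.660 to 10.5) in ESCs with serum. Zfp600 stood at 0.0238, 0.128 and 0.175 FPKM in EpiSCs, against 9.40 and 2.89 FPKM in ESCs with BMP-4 and with serum. Its ESC values differed from each other by 1.42 on the log2 scale, the widest such gap among the Zfp genes, and 87.3% of its 31-base words occur in other genes, so its level is uncertain. Zfp534, which is not on that list and lies on chromosome 4 as Zfp600 does, stood at 1.90, 1.90 and 1.73 FPKM in EpiSCs and at 17.8 and 10.8 FPKM in ESCs with BMP-4 and with serum, and shares 83.0% of its words. Zfp59 stood at 4.90, 5.20 and 4.87 FPKM in EpiSCs, against 21.9 and 21.6 FPKM in ESCs with BMP-4 and with serum, with 65.1% of its words shared. The other lower genes, Zfp808, Zfp229, Zfp850, Zfp710 and Zfp518b, had median log2 differences between -1.66 and -1.18, with overlapping intervals in at least 1 pair. Zfp808 shares 43.2% of its words, and Zfp710 has the same deposited span as Gm21057.

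Among the genes that were higher in EpiSCs, 3 had intervals apart in all 6 pairs. Zfp608 stood at 12.0, 12.1 and 9.73 FPKM in untreated, 1.5 h and 24 h EpiSCs, against 0.0875 FPKM in ESCs with BMP-4 and 0.0368 FPKM in ESCs with serum, where the intervals reached down to 0. It had the widest upward difference of the Zfp genes, with a median of 3.58. Zfp946 (chromosome 17, 22561235 to 22593656) stood at 26.1 FPKM (10.7 to 41.5), 23.3 and 18.3 FPKM in the EpiSC libraries, against 2.71 FPKM (0 to 5.45) in ESCs with BMP-4 and 2.32 FPKM (0 to 4.95) in ESCs with serum. Zfp629 (chromosome 7, 134750549 to 134757947) stood at 4.32, 4.37 and 3.72 FPKM in EpiSCs and at 0.227 and 0.147 FPKM in ESCs with BMP-4 and with serum.

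The other 7 higher genes were Zfp362, Zfp365, Zfp280c, Zfp768, Zfp948, Zfp251 and Zfp282, with median log2 differences between 1.10 and 1.83 and overlapping intervals in at least 1 pair. Zfp365, whose human counterpart binds DISC1, stood at 18.9, 19.8 and 19.7 FPKM in untreated, 1.5 h and 24 h EpiSCs and at 3.09 and 8.90 FPKM in ESCs with BMP-4 and with serum. It lay closest to the limit among switched genes, with a smallest difference of 1.005, and Zfp654 (2.90, 2.89 and 2.86 FPKM in EpiSCs, against 7.15 and 6.79 FPKM in ESCs with BMP-4 and with serum) lay just outside. Counted by intervals, 11 of the 217 Zfp genes (5.07%, against 4.44% of all genes) switched and had intervals in untreated EpiSCs apart from both ESC libraries, 8 lower and 3 higher.

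**Figure D2:**
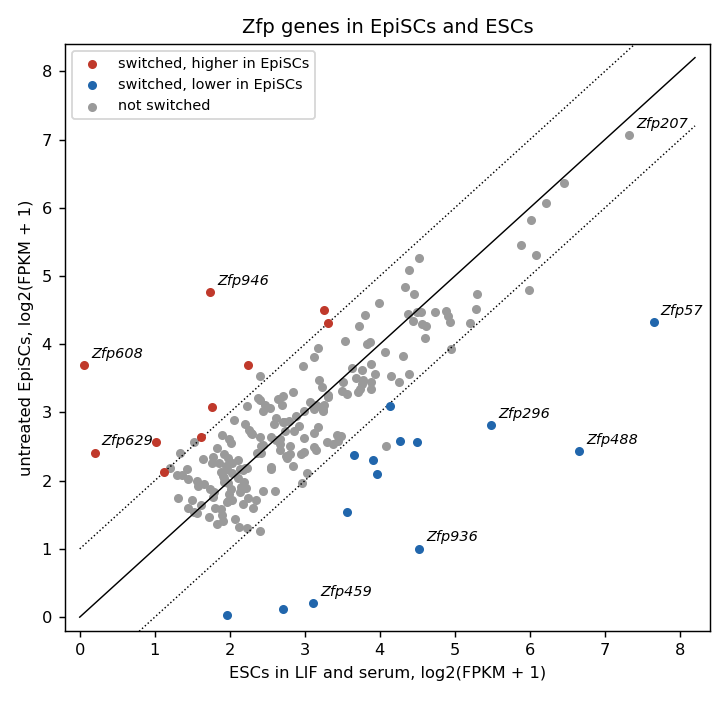
Level of each Zfp gene in untreated EpiSCs (vertical) against ESCs in LIF and serum (horizontal), both as log2(FPKM + 1), with the line of equality and dotted lines at 2-fold. Most genes lie between the dotted lines, Zfp207 with them, while Zfp57, Zfp488, Zfp296, Zfp936 and Zfp459 lie below and Zfp608, Zfp946 and Zfp629 above.

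Small differences between states were common, as they were for all genes. In 68 of 217 Zfp genes (31.3%, against 34.3% of all genes) every EpiSC library was above every ESC library at any size of difference, and in 79 (36.4%, against 36.4%) every EpiSC library was below. The median over Zfp genes of the EpiSC minus ESC log2 difference was -0.05, against -0.02 over all genes. Taken pair by pair, 13 Zfp genes were at least 2-fold higher in untreated EpiSCs than in ESCs with serum (5.99%, against 10.9% of all genes) and 18 lower (8.29%, against 8.95%), of which 11 in both directions together had intervals apart (5.07%, against 5.81%). Against ESCs with BMP-4, 18 were higher (8.29%, against 10.4%) and 17 lower (7.83%, against 9.24%), of which 13 had intervals apart (5.99%, against 5.69%). The 2 comparisons share the untreated EpiSC library.

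By role, the known guardians of imprints differed in their values. Zfp445, a KRAB protein that acts at imprinted loci beside Zfp57, stood at 21.2, 20.9 and 21.8 FPKM in untreated, 1.5 h and 24 h EpiSCs and at 18.3 and 21.6 FPKM in ESCs with BMP-4 and with serum, so its ESC and EpiSC values overlapped. Zfp57 was thus far above Zfp445 in both ESC libraries on the FPKM scale, which is per length. In each EpiSC library the Zfp57 value was the lower one, but the intervals overlapped, so their order there is uncertain. In untreated EpiSCs the intervals were 5.27 to 32.7 FPKM for Zfp57 and 10.0 to 32.4 FPKM for Zfp445. Of 8 listed genes known for repression of endogenous retroviruses and other transposons, 4 reached the mean of 2 FPKM. Of these 2, Zfp819 and Zfp600, switched lower, where 6.2% of all genes did. Both reached the mean only through the ESC libraries, where they were high, so this count is no result about the list. Zfp809, which silences proviruses through their primer binding site, stood at 19.0, 18.8 and 19.0 FPKM in EpiSCs and at 23.1 and 29.6 FPKM in ESCs with BMP-4 and with serum. Zfp932 stood at 9.11, 8.24 and 8.62 FPKM in EpiSCs and at 12.9 and 12.3 FPKM in ESCs with BMP-4 and with serum. Both lay below their ESC values in each EpiSC library, by less than 2-fold.

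Of 9 listed genes of pluripotency and of exit from the naive state, all 9 were expressed and 8 could be compared. Of these 1, Zfp296, switched, where 13.2% of all genes did, and the list median was -0.46. Zfp462, which protects cell identity through heterochromatin, stood at 5.01, 5.25 and 3.99 FPKM in EpiSCs and 9.80 and 9.86 FPKM in ESCs with BMP-4 and with serum, within 2-fold on the log2(FPKM + 1) scale in at least 1 pair. Zfp322a stood higher in EpiSCs (23.3, 22.4 and 32.3 FPKM) than in ESCs with BMP-4 and with serum (14.1 and 14.9 FPKM). Zfp706, needed for exit from the naive state, stood at 55.4, 55.0 and 56.2 FPKM in EpiSCs and at 54.1 and 63.6 FPKM in ESCs with BMP-4 and with serum. Zfp281, a driver of that exit, was reported with status OK in untreated and 1.5 h EpiSCs (18.2 and 18.0 FPKM), and its values elsewhere, without that status, entered its mean and the levels but no comparison.

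Of the 11 expressed genes listed for RNA binding or other finger types 0 switched, where 13.2% of all genes did, and the list median was -0.08. A count of 0 in a list this short is no result about the list. Zfp207 stood at 133, 133 and 130 FPKM in EpiSCs and at 124 and 160 FPKM in ESCs with BMP-4 and with serum. Zfp622, of ribosome maturation, stood at 38.4, 39.2 and 38.7 FPKM in EpiSCs and at 44.5 and 66.5 FPKM in ESCs with BMP-4 and with serum. Zfp36 (tristetraprolin, which directs the decay of mRNAs with AU-rich elements) stood at 4.29, 3.08 and 3.95 FPKM in EpiSCs and at 1.53 FPKM in each ESC library. Zfp36 lay higher in every EpiSC library. On the log2(FPKM + 1) scale the difference was over 2-fold in untreated EpiSCs against both ESC libraries. It was less than 2-fold in at least 1 other pair on that scale. Of 13 listed genes of development, 4 reached the mean and 0 of these 4 switched, again too few for a result about the list. Under the mean, Zfp703 (higher in EpiSCs) and Zfp704 (lower) of this list met the switch rule. Zfp704 stood at 0.985, 1.01 and 0.962 FPKM in EpiSCs and at 3.14 and 3.20 FPKM in ESCs with BMP-4 and with serum. Among the 4 that reached the mean was Zfp568, a KRAB gene that silences a placental Igf2 transcript. It stood at 20.4, 22.1 and 24.2 FPKM in EpiSCs and at 25.4 and 29.2 FPKM in ESCs with BMP-4 and with serum.

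The partners of KRAB zinc finger proteins were expressed in both states. Trim28, their shared scaffold, stood at 268, 267 and 254 FPKM in untreated, 1.5 h and 24 h EpiSCs, against 546 FPKM in ESCs with BMP-4 and 489 FPKM in ESCs with serum. Its EpiSC values lay below both ESC values, with a median log2 difference of -0.98, and it was not called switched. Of 24 listed corepressors all 24 were compared, and 2 switched higher and 2 lower, where 6.99% and 6.2% of all genes did. The list median was -0.22, and counts this small are no result about the list. The lower ones were Smarcad1, a chromatin remodeller (23.5, 21.9 and 22.5 FPKM in EpiSCs, against 74.9 and 79.3 FPKM in ESCs with BMP-4 and with serum), and Fam208a of the HUSH complex (10.3, 10.3 and 11.6 FPKM, against 28.8 and 26.2 FPKM). The higher ones were Pphln1, also of the HUSH complex (31.3, 32.3 and 28.9 FPKM, against 8.52 and 11.1 FPKM), and Chd3 (7.83, 9.41 and 16.3 FPKM, against 2.41 and 1.67 FPKM). Setdb1 stood at 40.2, 38.9 and 38.1 FPKM in EpiSCs and at 56.5 and 69.0 FPKM in ESCs with BMP-4 and with serum.

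The second question was how these genes differed with BMP-4 within a state. In EpiSCs 0 of 218 Zfp genes were at least 2-fold higher and 0 lower after 1.5 h than in untreated cells, where 0.215% and 0.164% of all genes were. After 24 h 0 of 217 were higher and 0 lower, where 0.574% and 0.533% of all genes were. With intervals apart as well, the counts were again 0 at 1.5 h and 0 at 24 h, against 0.0307% and 0.082% of all genes. At background shares that low, a count of 0 in a list of this length is no result about the Zfp genes. The widest differences on the log2(FPKM + 1) scale were -0.58 for Zfp52 and 0.43 for Zfp362 after 1.5 h, and -0.49 for Zfp946 and 0.50 for Zfp40 after 24 h. Zfp40 stood at 5.8 FPKM at 24 h, against 3.81 FPKM in untreated EpiSCs. Zfp423, whose human protein partners Smads on BMP targets, stood at 6.96 FPKM after 1.5 h and 6.26 FPKM after 24 h, against 5.36 FPKM in untreated EpiSCs. The 1.5 h and 24 h comparisons share the untreated library.

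In ESCs, where BMP-4 in basal medium replaced serum, 1 of 217 Zfp genes was at least 2-fold higher with BMP-4 (0.461%, against 2.35% of all genes) and 3 were lower (1.38%, against 1.29%). The intervals overlapped for all 4, so 0 were apart, against 0.215% of all genes. The higher one was Zfp600. The lower ones were Zfp365, Zfp869 (5.71 FPKM with BMP-4 and 13.6 FPKM with serum) and Zfp160 (1.18 FPKM with BMP-4 and 3.63 FPKM with serum). Across the 3 EpiSC libraries the median range of a Zfp gene was 0.17 on the log2 scale, against 0.15 for all genes, and between the ESC libraries 0.19, against 0.22 for all genes.

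**Figure D3:**
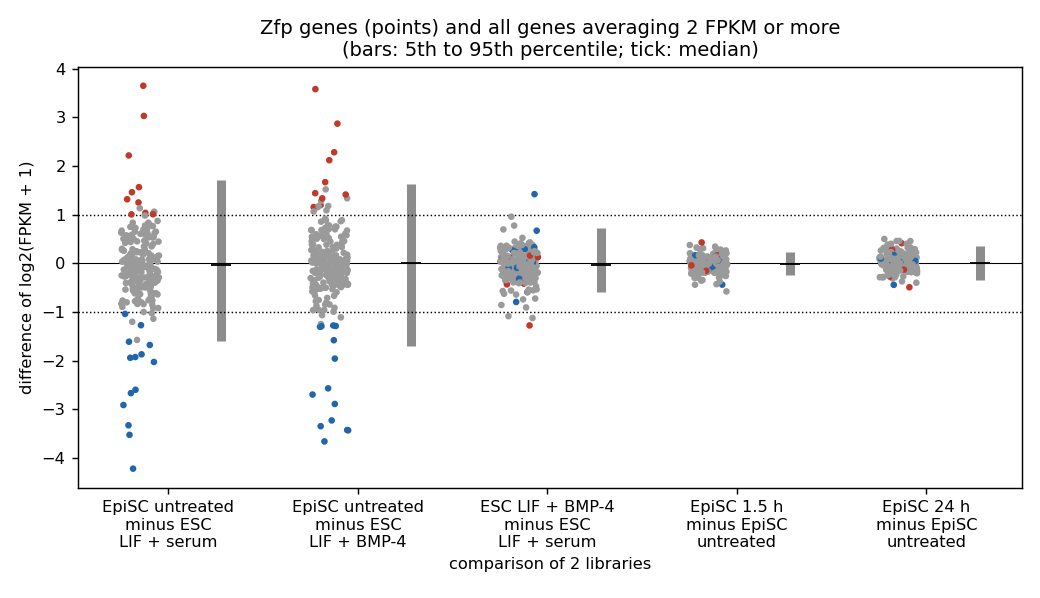
Differences of log2(FPKM + 1) for each Zfp gene (points: red and blue for switched genes that are higher and lower in EpiSCs, grey for the others) in 5 comparisons of 2 libraries, with bars for the 5th to 95th percentile of all genes averaging 2 FPKM or more. The points spread beyond the dotted 2-fold lines in the state comparisons and stay within them after BMP-4 in EpiSCs.

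The third question was whether switched genes lie together. Zfp genes at most 500 kb apart on a chromosome were chained into clusters by the deposited mm9 positions. This gave 32 clusters with 129 of the 218 genes, and 89 genes lay alone. Chromosome 7 held 54 Zfp genes, with 2 switched higher and 6 lower, and chromosome 17 held 33, with 2 higher and 2 lower. Of the genes in clusters 14 of 129 switched (10.9%), and of those alone 10 of 89 (11.2%). Over all genes averaging 2 FPKM or more, chained the same way, 12.8% of those in clusters and 27.3% of those alone switched. The difference between these patterns was not tested.

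Within clusters no neighbouring Zfp genes had both switched. Of 97 pairs of neighbouring Zfp genes within clusters, 0 had both genes switched and 21 had 1 switched. Of 8752 neighbouring pairs of all genes averaging 2 FPKM or more, chained the same way, 154 switched the same way (1.76%) and 40 in opposite ways. Neighbours were taken within each set, so expressed genes outside the Zfp set can lie between Zfp neighbours. The 2 kinds of pairs were not matched for distance. At background shares that low, a count of 0 in 97 pairs is no result about the Zfp genes. The closest switched pair by that order was Zfp600 and Zfp534 on chromosome 4, both lower in EpiSCs, with no expressed Zfp gene between them but 882 kb apart, beyond the 500 kb limit. Both share most of their sequence with other genes.

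In 4 of the 32 clusters 2 or more genes switched. Over all genes 267 of 763 clusters did, and those clusters hold more genes each (9521 in all, against 129 Zfp genes in 32). On chromosome 7 between 50432958 and 50873649, Zfp936 and Zfp819 were lower in EpiSCs while the 2 Zfp genes between them were not. Zfp715 had a median log2 difference of -0.08 and Zfp719 of 0.13. The switched ends of this cluster thus lay 415 kb apart around Zfp genes with medians near 0. Its span held 17 genes, 6 of them averaging 2 FPKM or more. One of those 6 outside the Zfp set, EU599041, also switched lower. On the same chromosome between 28516428 and 29164247, Zfp59 and Zfp850 were lower, 128 kb apart, with Zfp607 and Zfp780b (medians -0.37 and -0.18) between them. Of the other genes in that span averaging 2 FPKM or more, Dll3 and Plekhg2 switched higher. Between 134376957 and 135034484, Zfp768 and Zfp629 of 9 Zfp genes were higher, 262 kb apart, with Zfp747, Zfp764 and Zfp688 between them. Of the other genes in that span averaging 2 FPKM or more, 0 switched. The largest cluster, 16 genes on chromosome 17 between 21145905 and 23736454, held genes that differed in opposite directions. In it Zfp948 and Zfp946 were higher, and Zfp229, which lies between them, was lower (3.28, 3.31 and 3.87 FPKM in untreated, 1.5 h and 24 h EpiSCs, against 9.38 and 14.7 FPKM in ESCs with BMP-4 and with serum). The other large clusters, 12 genes on chromosome 17 from Zfp871 to Zfp414 and 11 genes on chromosome 7 from Zfp84 to Zfp146, held 0 switched genes.

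**Figure D4:**
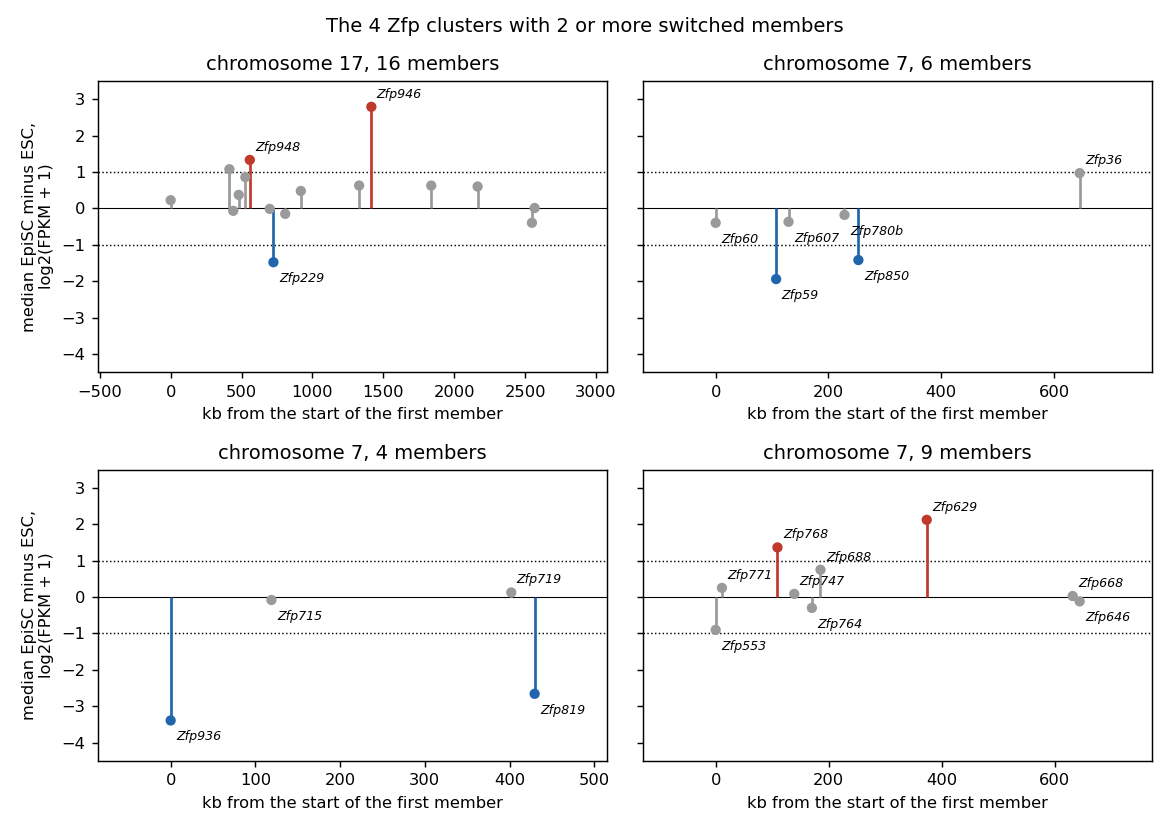
Median EpiSC minus ESC difference of log2(FPKM + 1) of each Zfp gene (vertical) by distance in kb from the first gene of its cluster (horizontal), for the 4 clusters with 2 or more switched genes, with red and blue for switched genes and grey for the others. In each panel the coloured genes are separated by grey ones, and on chromosome 17 they point in both directions.

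The sequence before the start of these genes was read from RefSeq windows (GRCm38.p6 positions, not the mm9 of the expression table), which were found by symbol for 181 of the 218 genes. The windows of the 4 genes of the chromosome 7 cluster are shown because neighbours that switched and neighbours that did not lie side by side there, together with Zfp850 (lower), Zfp946 and Zfp768 (higher). Each is the 250 bases before the start, 5′ to 3′ on the gene's strand, with CpG dinucleotides in capitals. Zfp936 is at chr7:43177340-43177589 on the plus strand, Zfp715 at chr7:43313301-43313550 on the minus strand, Zfp719 at chr7:43579336-43579585 and Zfp819 at chr7:43606919-43607168, both on the plus strand. Zfp850 is at chr7:28014116-28014365 and Zfp768 at chr7:127345315-127345564, both on the minus strand, and Zfp946 is at chr17:22423952-22424201 on the plus strand. The bases after the start were looked for in GENCODE transcripts of the same gene as a check of start and strand, and were found for all of these but Zfp719, whose window is thus less certain.
Zfp936: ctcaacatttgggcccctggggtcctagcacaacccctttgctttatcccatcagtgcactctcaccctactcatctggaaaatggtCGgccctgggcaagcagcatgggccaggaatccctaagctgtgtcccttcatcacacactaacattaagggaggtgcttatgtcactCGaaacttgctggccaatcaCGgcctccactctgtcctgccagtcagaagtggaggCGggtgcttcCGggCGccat
Zfp715: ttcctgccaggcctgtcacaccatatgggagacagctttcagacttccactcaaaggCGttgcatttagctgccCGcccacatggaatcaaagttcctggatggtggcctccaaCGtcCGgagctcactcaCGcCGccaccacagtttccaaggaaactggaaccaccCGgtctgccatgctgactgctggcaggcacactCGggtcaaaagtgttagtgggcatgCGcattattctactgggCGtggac
Zfp719: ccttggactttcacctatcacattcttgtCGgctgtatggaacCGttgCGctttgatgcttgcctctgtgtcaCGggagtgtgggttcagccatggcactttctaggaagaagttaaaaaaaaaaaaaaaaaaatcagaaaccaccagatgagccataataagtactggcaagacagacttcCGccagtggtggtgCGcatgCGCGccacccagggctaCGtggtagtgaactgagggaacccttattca
Zfp819: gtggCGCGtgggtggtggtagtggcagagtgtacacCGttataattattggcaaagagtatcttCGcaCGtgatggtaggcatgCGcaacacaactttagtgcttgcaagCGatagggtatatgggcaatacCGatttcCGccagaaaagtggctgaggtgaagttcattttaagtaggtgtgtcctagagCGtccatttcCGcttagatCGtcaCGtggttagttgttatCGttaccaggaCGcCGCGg
Zfp850: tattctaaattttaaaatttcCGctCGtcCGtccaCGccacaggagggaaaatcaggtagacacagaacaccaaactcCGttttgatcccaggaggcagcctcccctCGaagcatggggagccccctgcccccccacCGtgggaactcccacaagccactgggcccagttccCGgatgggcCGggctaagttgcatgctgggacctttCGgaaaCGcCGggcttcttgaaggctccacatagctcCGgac
Zfp946: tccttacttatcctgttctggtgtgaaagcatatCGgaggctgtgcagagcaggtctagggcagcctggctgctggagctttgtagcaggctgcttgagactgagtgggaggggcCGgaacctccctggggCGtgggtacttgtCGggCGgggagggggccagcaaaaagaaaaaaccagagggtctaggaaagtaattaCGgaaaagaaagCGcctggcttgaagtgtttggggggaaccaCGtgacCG
Zfp768: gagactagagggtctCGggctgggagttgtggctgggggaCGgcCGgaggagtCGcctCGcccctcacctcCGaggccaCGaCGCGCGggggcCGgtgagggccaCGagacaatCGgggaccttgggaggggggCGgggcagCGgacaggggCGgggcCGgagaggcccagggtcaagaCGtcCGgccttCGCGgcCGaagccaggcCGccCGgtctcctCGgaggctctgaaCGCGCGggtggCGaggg

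CpG dinucleotides, the sites of DNA methylation in mammals, did not sort these windows by switch. In the chromosome 7 cluster Zfp936 held 6 and Zfp819 held 17, both lower in EpiSCs, while the genes between them, Zfp715 and Zfp719, held 10 and 9 (the Zfp719 window being the less certain one). Zfp768 held 29 and Zfp946 held 9, both higher in EpiSCs. Over all Zfp genes with a window, taking the richest window of each gene, the median CpG count was 9 for the 7 higher genes (range 6 to 33), 7.5 for the 14 lower genes (range 1 to 17) and 13 for the 159 genes not switched (range 2 to 44). The lower genes thus had no window above 17, and their range overlapped that of the genes not switched. All genes averaging 2 FPKM or more had a median of 18, and those of them switched lower and higher 14 and 18. The number of switched Zfp genes with a window is small and no difference was tested.

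Short motifs were searched on both strands of the same 250 bases, and none of them contains another. CCAAT, the letters NF-Y reads, occurred in 8 of 14 lower genes (57.1%), 1 of 7 higher genes and 52.8% of the genes not switched, against 41.8% of all genes averaging 2 FPKM or more. AAGGTCA, letters read by the naive factor Esrrb, occurred in 0 of 14 lower and 0 of 7 higher genes, against 3.24% of all genes. It occurred in 4.4% of the Zfp genes not switched. At shares that low, a count of 0 in lists this short is no result about the switched genes. GGGNGTG, letters read by Kruppel-like factors, occurred in 4 of 14 lower and 4 of 7 higher genes, against 37% of all genes. CCGGAAG of ETS factors occurred in 2 of 14 lower and 0 of 7 higher genes, against 17.8% of all genes. It occurred in 20.1% of the Zfp genes not switched, and in 10.2% and 5.71% of all genes switched lower and higher. TGACG of CREB and ATF factors occurred in 2 of 14 lower and 2 of 7 higher genes, against 32.8% of all genes. It occurred in 31.4% of the Zfp genes not switched, and in 21% and 23.3% of all genes switched lower and higher. The switched Zfp genes with a window are few, and no difference in motifs was tested. A match is a description of these letters in the window and not a binding site.

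**Figure D5:**
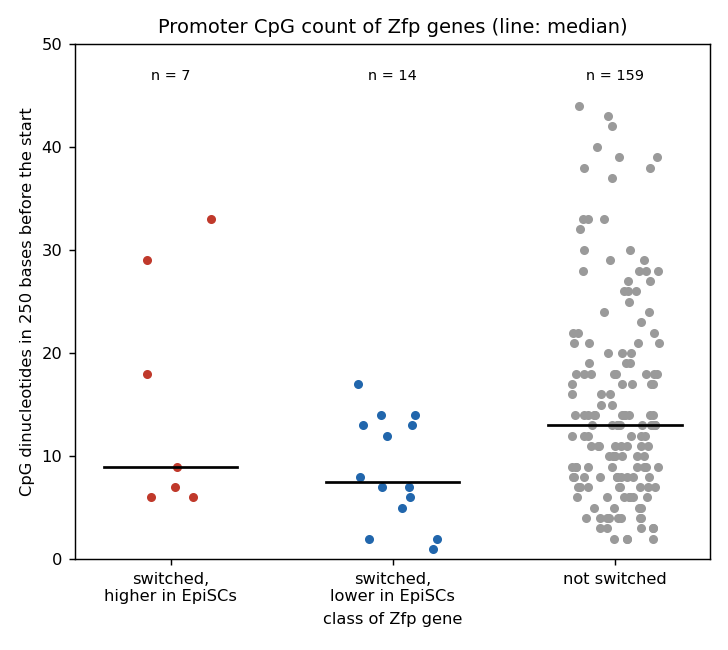
Number of CpG dinucleotides in the 250 bases before the start (vertical, richest RefSeq window of each gene) for Zfp genes switched higher in EpiSCs, switched lower and not switched (horizontal), with points for genes and a line for the median. The medians are 9, 7.5 and 13, and the points of all classes overlap.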

How the data were processed

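The deposited values are FPKM per gene with a lower and an upper bound and a status, per the file headers, made by the authors with TopHat, Cufflinks 2.0.13, Picard and SAMtools on mm9, per the submitters' processing notes. Libraries were directional and made from poly(A)+ RNA, per the labels' protocols. The annotation, the filters, the level of the bounds and the scaling between libraries were not stated by these sources. No reads per gene were used, and 1 library a group gives no error between cultures.

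Differences were taken on log2(FPKM + 1) for genes averaging 2 FPKM or more. Values without status OK were left out of comparisons that used them. The background shares come from all genes at that mean. The genes, lists and comparisons were chosen with earlier results of these data known. Named genes follow a written rule: the 12 highest and 12 lowest switched genes and those with intervals apart, listed genes, genes of clusters with 2 or more switched genes, up to 4 each way per BMP-4 comparison that were 2-fold apart and reached 5 FPKM, and the 5 highest. Start positions were written from 1. Words of 31 bases were compared among GENCODE M21 transcripts, and 33 of 216 genes found there shared at least 10% of them with other genes. The caller was tested only on simulated data with planted shifts and no differences between cultures, which says nothing of its error in these libraries. Python 3.11.15, pandas 2.3.3 and numpy 2.4.6 were used. Features of the encoded proteins were not analysed here.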

Additional observations from a re-analysis of the deposited data

How the results depend on the processing

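No paired analysis was possible because only 1 library stood for each group. With no replicate, depth and the width of the deposited intervals limit every difference of a low gene. Leaving out 1 library at a time gave between 10 and 14 Zfp genes higher and between 14 and 17 lower in EpiSCs. A library left out or a smaller pseudocount can only add switched genes under this rule, so that none was lost says nothing of stability; a pseudocount of 0.1 gave 28. With libraries centred on their median, which moved them by little, the same 24 switched. With the pseudocount of 0.1, which cannot turn a direction, the size moved for 10 of 24. A mean of at least 5 FPKM, which leaves fewer genes, gave 6 switched higher, 7 higher in untreated EpiSCs than in ESCs with serum, 10 higher than in ESCs with BMP-4, and 0 higher in ESCs with BMP-4 than with serum. A pseudocount of 0.1 gave 2 higher and 5 lower in ESCs with BMP-4 than with serum, and 1 higher in EpiSCs after 24 h, Zfp600, at 0.175 FPKM against 0.0238 FPKM in untreated cells. With no filter on the mean, 1 gene was lower after 1.5 h and 2 were higher after 24 h. Linking loci up to 1000 kb joined Zfp600 and Zfp534 and gave 1 neighbouring pair that switched the same way. The planned protein features were not analysed here. Causes beyond the construction of each alternative were not tested.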

Other observations

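Zinc finger genes under other names, taken from rows that start with Zscan, Zkscan, Zbtb, Zik, Zim or Rslcan, the Zic genes and Zfp genes with other endings, were read in the same way. Of 51 such genes averaging 2 FPKM or more, 2 switched higher and 3 lower in EpiSCs, where 6.99% and 6.2% of all genes did. Their median log2 difference was -0.09, and counts this small are no result about these genes. The higher ones were Zic2, a factor of the epiblast and neural plate (41.5, 27.8 and 25.9 FPKM in untreated, 1.5 h and 24 h EpiSCs, against 8.13 FPKM in ESCs with BMP-4 and 0.826 FPKM in ESCs with serum), and Zfp36l2, which encodes an mRNA decay factor related to tristetraprolin (32.4, 34.3 and 34.6 FPKM, against 7.71 and 9.27 FPKM). The lower ones were Zbtb8a (1.49, 2.16 and 1.85 FPKM in EpiSCs, against 18.9 and 20.5 FPKM in ESCs with BMP-4 and with serum), Zbtb32 and Zbtb43.

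Of the 135 Zfp rows under a mean of 2 FPKM, 34 reached 2 FPKM in at least 1 library, 8 were listed at 0 in all 5 libraries, and 3 switched higher and 3 lower in EpiSCs. The higher ones included Zfp703, known from development of the nervous system and of the mammary gland (1.62, 1.63 and 2.15 FPKM in untreated, 1.5 h and 24 h EpiSCs, against 0.0349 FPKM in ESCs with BMP-4 and listed at 0 in ESCs with serum). Zfp248 and Zfp709 were listed at 0 in all 3 EpiSC libraries and stood at 1.29 and 1.51 FPKM in ESCs with BMP-4 and at 2.36 FPKM each in ESCs with serum. Zfp964 and Zfp677, named after their values were seen, were at least 2-fold higher after 24 h of BMP-4 (5.46 and 5.03 FPKM, against 1.41 and 1.74 FPKM in untreated EpiSCs), and Zfp672 lower after 1.5 h (1.09 FPKM, against 4.64 FPKM), all with overlapping intervals.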
